A study of Mus musculus with 10 samples.

Results

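Dpys and 4930555K19Rik, a pair of genes on mouse chromosome 15 that were close to silent in control round spermatids and gave counts in every heated library, are described here with the 3 long genes beside them, Lrp12, Zfpm2 and Oxr1. These 5 genes of the 55401 genes counted were found by symbol. Dpys and 4930555K19Rik were picked for their counts at 33 °C and 42 °C, so their own levels are a description with no test, while Lrp12, Zfpm2 and Oxr1 were picked by position and were tested. Round spermatids are the haploid cells that meiosis yields in the testis. Adult male CD1 mice, which are outbred, were held under isoflurane with the testes touching temperature-controlled water for 30 minutes, at 33 °C in the control group and at 42 °C in the heat group. They were killed once awake, the round spermatids were isolated, and total RNA depleted of ribosomal RNA was made into stranded libraries, 5 per group, with N = 5 stated for each group. All mice thus shared the anaesthetic, the bath and the isolation, and the RNA was that present after recovery and isolation.

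Dpys encodes dihydropyrimidinase, which opens the ring of dihydrouracil and dihydrothymine in the breakdown of pyrimidines, after dihydropyrimidine dehydrogenase (Dpyd) and before beta-ureidopropionase (Upb1). That pathway is known above all from liver and kidney. 4930555K19Rik is a processed pseudogene, that is, a copy of a spliced messenger RNA that was reverse transcribed and inserted elsewhere in the genome. Lrp12 encodes a membrane protein of the low-density lipoprotein (LDL) receptor family, Zfpm2 encodes FOG2, a zinc finger cofactor of GATA transcription factors with roles in the heart and the gonads, and Oxr1 encodes a TLDc domain protein that protects cells from oxidative damage.

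The genes lie in this order in GRCm38. Dpys (ENSMUSG00000022304) spans chr15:39768487-39857470 on the minus strand. Lrp12 (ENSMUSG00000022305) spans chr15:39870589-39943994, also on the minus strand. Transcription of both runs toward lower coordinates, so Dpys lies past the 3′ end of Lrp12, 13.1 kb away, with no other gene of the table between them. Zfpm2 (ENSMUSG00000022306) spans chr15:40655035-41104592 on the plus strand. 4930555K19Rik (ENSMUSG00000048559) is a single exon of 382 bases at chr15:41173487-41173868, on the plus strand too. It lies 68.9 kb past the 3′ end of Zfpm2, again with no gene of the table between them. Oxr1 (ENSMUSG00000022307) spans chr15:41447482-41861048 on the plus strand, further along. RefSeq places 4930555K19Rik at 41173701 to 41175425 (GRCm38.p6), which shares 168 bases with the GENCODE exon that was counted.

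A search of all GENCODE M21 transcripts found 1 other gene that resembles 4930555K19Rik, namely Lrsam1 (ENSMUSG00000026792, chromosome 2, 32925216 to 32961614, minus strand), which encodes an E3 ubiquitin ligase with leucine-rich repeats and a RING finger. The alignment covered 385 columns at 92.5% identity, with 10 mismatches and 19 gap bases. All 369 Lrsam1 bases in it were coding and came from exons 23 to 26 joined without their introns. The longest gapless stretches of the alignment are printed because they show how alike the pseudogene and Lrsam1 are, which bears on where a read can be counted. The strand shown is that of the RNA, 5′ to 3′, and capitals mark the bases that differ. The first block holds 184 bases, of which 5 differ (97.3% identity). In the pseudogene it lies at chr15:41173487-41173670 (plus strand), and in Lrsam1 it joins coding pieces of exons 23 to 25 within chr2:32928047-32929591 (minus strand).
4930555K19Rik: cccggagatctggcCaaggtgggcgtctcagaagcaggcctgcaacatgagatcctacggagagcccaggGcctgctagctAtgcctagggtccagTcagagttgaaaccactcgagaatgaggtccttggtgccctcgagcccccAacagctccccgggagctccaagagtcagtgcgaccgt
Lrsam1: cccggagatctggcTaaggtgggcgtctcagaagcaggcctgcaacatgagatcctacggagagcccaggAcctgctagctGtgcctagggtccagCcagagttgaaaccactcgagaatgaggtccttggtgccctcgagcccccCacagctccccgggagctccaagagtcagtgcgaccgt
The second block holds 141 bases, of which 4 differ (97.2% identity). It lies at chr15:41173693-41173833 in the pseudogene and joins exons 25 and 26 within chr2:32926817-32928040 in Lrsam1, near the end of the coding sequence, where the RING finger is encoded.
4930555K19Rik: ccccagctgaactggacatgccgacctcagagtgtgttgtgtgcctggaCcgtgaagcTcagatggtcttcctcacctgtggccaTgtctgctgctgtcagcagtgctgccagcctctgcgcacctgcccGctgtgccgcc
Lrsam1: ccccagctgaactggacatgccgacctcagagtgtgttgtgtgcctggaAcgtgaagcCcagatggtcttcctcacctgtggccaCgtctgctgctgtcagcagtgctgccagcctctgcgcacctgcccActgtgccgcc
Over the whole alignment 29 columns differed, and any stretch of 150 pseudogene bases, the stated read length, held 4 to 21 of them. The longest run of identical bases was 55. Each full-length read over the pseudogene thus crosses several positions at which it differs from Lrsam1, yet how reads with more than 1 possible place were counted is not given in the sources used here, so counts of the pseudogene remain uncertain to that degree. For the longest Dpys transcript, of 2466 bases, no such near copy was found among the annotated transcripts. Its closest matches were paralogs of Dpys, and the closest stretch, of 59 bases in Dpysl2, was 84.7% identical. The exons of Dpys cover 3743 bases in all. Those outside that transcript, and copies elsewhere in the genome without annotation, were not searched.

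Library totals ran from 60623568 to 117723075 counts over genes and transposable elements (TE). 42 °C replicate 2 had both the lowest total and the highest share of counts on TE, 16.2%, where the other libraries had 4.62% to 9.07%. It was also the lowest of the 5 heated libraries in the level of each of the 5 genes, so values without it are given where they matter. Levels are CPM, the counts scaled to a common library size by the TMM method of edgeR, and log2 fold changes are 42 °C minus 33 °C. In bulk RNA such as this, fewer cells of a type and less RNA per cell cannot be told apart. Markers of round spermatids, the labelled cell type, summed to 1327 to 2206 CPM in the control libraries and to 1551 to 2367 CPM in the heated ones.

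Dpys counts were 0, 1, 5, 0 and 0 in the 33 °C replicates 1 to 5 and 128, 78, 138, 124 and 130 in the 42 °C replicates 1 to 5. The groups did not overlap, and the 33 °C group total of 6 counts had 5 in replicate 3. In CPM the 33 °C libraries were at 0, 0.00905, 0.0507, 0 and 0, and the 42 °C libraries at 1.29, 1.16, 1.37, 1.39 and 1.36. The control mean was 0.0120 ± 0.0220 CPM and the heated mean 1.31 ± 0.0953 CPM (SD, n = 5 each), a fitted log2 difference of 6.58 (SE 0.58). From the group totals the ratio was 106-fold, with a 95% interval of 48.5 to 290 that covers counting error only. Without 33 °C replicate 3 the control total was 1 count and the ratio 507-fold (90.6 to 20042.9), so the size of the ratio rests on that library. Among the heated libraries the level was even. The coefficient of variation was 7.26%, and the counts varied 0.518 times as much as counting error alone would give (chi-square per degree of freedom).

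4930555K19Rik was not detected in any of the 5 control libraries (0 counts each) and had 217, 105, 285, 162 and 203 counts at 42 °C. In CPM the heated libraries were at 2.18, 1.56, 2.82, 1.81 and 2.12, a mean of 2.10 ± 0.476 (SD, n = 5), with replicate 3 highest and replicate 2 lowest. A count of 0 in a control library still allows 3 counts, which is 0.0272 to 0.0338 CPM. With 3 counts over the whole control group as the floor, the heated level was at least 345-fold higher, or 8.43 on the log2 scale. The heated libraries differed more for the pseudogene than for Dpys, with a coefficient of variation of 22.7% and 9.29 times the variation of counting error. Of the 55401 genes it was the 1 gene with no count in any control library and at least 10, or at least 100, in every heated one, and 0 genes had the reverse pattern. Of the 26025 features tested with edgeR, 23 were higher at 42 °C with an adjusted p under 0.05 (0.0884%) and 344 were higher without overlap of the groups (1.32%). The pair was picked from this same contrast, so nothing is read from its place among them.

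**Figure D1:**
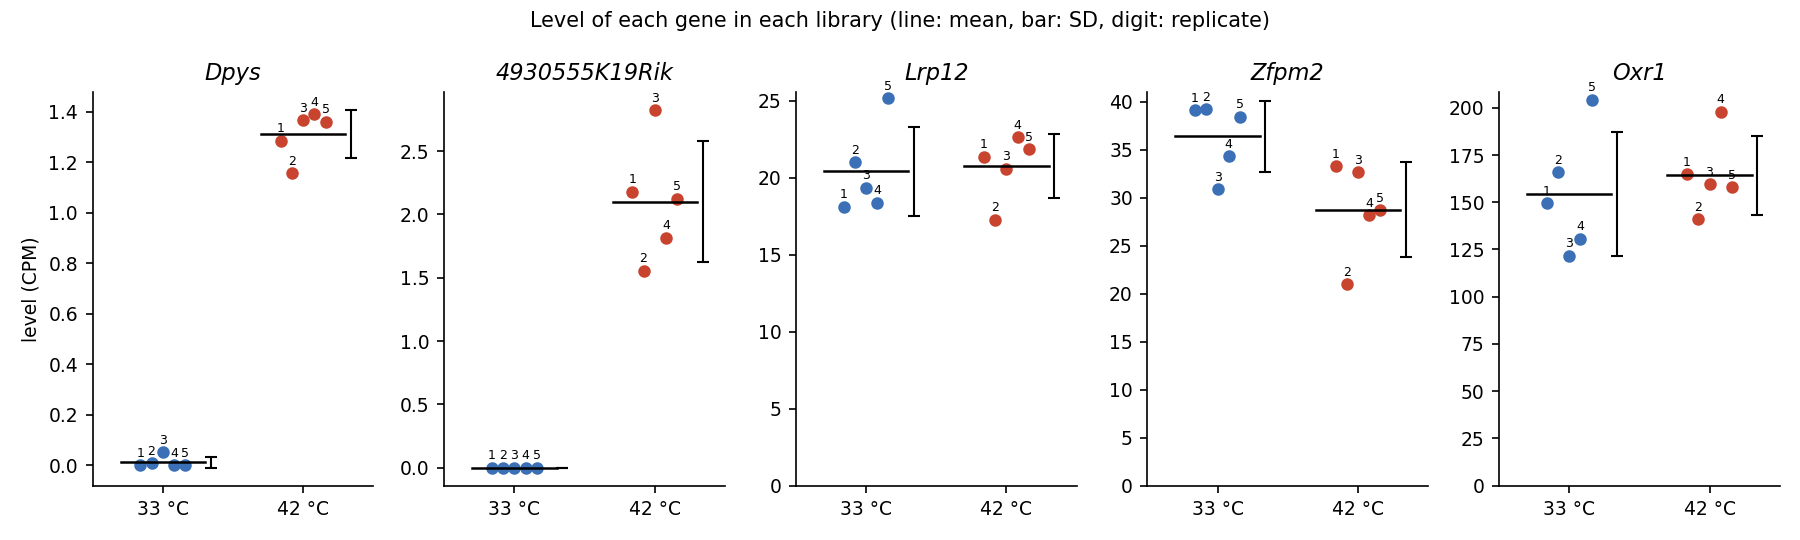
Level of each of the 5 genes in CPM (vertical axis, linear) in each library, with 33 °C in blue and 42 °C in red, replicate numbers beside the points, and lines and bars for mean and SD. Dpys and 4930555K19Rik are at or near 0 at 33 °C and reach 1.16 to 1.39 and 1.56 to 2.82 CPM at 42 °C, whereas the groups overlap for Lrp12, Zfpm2 and Oxr1.

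None of the 3 long neighbours was called by edgeR, which called 0.0922% of the 26025 tested features in all and 0.00384% as lower at 42 °C. Lrp12, the gene whose 3′ end faces Dpys, had 1641, 2321, 1906, 1722 and 2232 counts at 33 °C and 2126, 1164, 2076, 2019 and 2085 at 42 °C. That is 18.1, 21.0, 19.3, 18.4 and 25.2 CPM against 21.3, 17.3, 20.6, 22.6 and 21.8 CPM, with the groups overlapping widely. Its control mean of 20.4 ± 2.90 CPM compared with a heated mean of 20.7 ± 2.08 CPM, and the log2 fold change was 0.02 (SE 0.13), with an edgeR adjusted p of 0.943. The 95% interval, -0.26 to 0.30, allows from 0.838 to 1.23 times the control level. The fold change of Dpys lay far outside it. In CPM the heated mean of Dpys was only 1.31, and a gain of that size at Lrp12 would lie inside the interval. The sign of this small difference turned negative in 3 of the 10 fits that left out a library (33 °C replicate 1, 33 °C replicate 4 or 42 °C replicate 4). The log2 fold change was 0.11 without 42 °C replicate 2, and the highest of the 10 was 0.15, without 33 °C replicate 5.

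Zfpm2, whose 3′ end faces 4930555K19Rik, went toward lower values. Its counts were 3543, 4332, 3046, 3216 and 3409 at 33 °C and 3315, 1414, 3298, 2514 and 2741 at 42 °C. The levels were 39.1, 39.2, 30.9, 34.3 and 38.4 CPM against 33.3, 21.0, 32.7, 28.2 and 28.7 CPM. The 33 °C replicate 3 lay below 2 of the heated libraries, so the groups overlapped. The mean went from 36.4 ± 3.67 to 28.8 ± 4.92 CPM, a log2 fold change of -0.34 (SE 0.14, 95% interval -0.64 to -0.04). In the edgeR model fitted over all features it was under 0.05 before adjustment, as were 11.5% of features, and not after it (edgeR adjusted p = 0.410). Without 42 °C replicate 2 the log2 fold change was -0.22 (edgeR adjusted p = 0.498), over 1.5 times smaller.

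Oxr1 was the most abundant of the 5 genes. It had 13559, 18327, 11989, 12251 and 18116 counts at 33 °C and 16415, 9518, 16100, 17672 and 15080 at 42 °C. The control mean was 154 ± 32.7 CPM and the heated mean 164 ± 20.8 CPM, and the heated libraries (141 to 198 CPM) all fell within the range of the controls (122 to 204 CPM). The log2 fold change was 0.09 (SE 0.15, 95% interval -0.24 to 0.42, edgeR adjusted p = 0.789). Without 42 °C replicate 2 it was 0.17 (edgeR adjusted p = 0.677). Lrsam1, the coding gene that the pseudogene resembles, had 593, 651, 635, 571 and 422 counts at 33 °C and 452, 391, 533, 387 and 536 at 42 °C. Its level was 5.95 ± 0.714 CPM and 5.11 ± 0.648 CPM, with overlapping groups and a log2 difference of -0.22 (SE 0.15), for which the edgeR adjusted p was 0.525. The pseudogene had 0 counts in control libraries that each held at least 422 counts of Lrsam1. Those counts fall on 5145 exon bases, of which 369 align to the pseudogene. Whether reads of Lrsam1 were counted at the pseudogene was not tested.

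Per kilobase of exon, the order of levels at 33 °C was Oxr1 (21.6 CPM per kb), Lrp12 (4.45), Zfpm2 (3.82), Lrsam1 (1.16), Dpys (0.00319) and 4930555K19Rik (0). At 42 °C it was Oxr1 (23.0 CPM per kb), 4930555K19Rik (5.50 ± 1.25), Lrp12 (4.52), Zfpm2 (3.02), Lrsam1 (0.994) and Dpys (0.350 ± 0.0255). The value of the pseudogene is the least certain of these, since the exon is short and the fragment lengths of the libraries are not known here. Its SD also covers the level of Lrp12, so the order of these neighbours is not separated. In length-scaled level Dpys was the lowest of the 6 genes at 42 °C.

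The share of Dpys counts relative to Lrp12 counts was then taken within each library, which removes the library size. Per 100 counts of Lrp12, Dpys had 6.02, 6.70, 6.65, 6.14 and 6.24 counts in the heated libraries, a mean of 6.35 ± 0.307 (SD, n = 5). The control libraries had 0, 0.0431, 0.262, 0 and 0. The ratio varied by 4.83% among the heated libraries, and 42 °C replicate 2, lowest in both genes, had the highest ratio. Dpys counts alone varied 0.518 times as much as counting error would give. The evenness of the ratio therefore cannot show whether Dpys and Lrp12 vary together. Scaled by exon length it was 7.78 ± 0.376 per 100. For 4930555K19Rik per 100 counts of Zfpm2 the heated libraries had 6.55, 7.43, 8.64, 6.44 and 7.41, a mean of 7.29 ± 0.885, and scaled by exon length 182 ± 22.1. Against Lrsam1 the pseudogene was at 48.0, 26.9, 53.5, 41.9 and 37.9 counts per 100, a mean of 41.6 ± 10.2. This ratio varied by 24.4% and that to Zfpm2 by 12.1%. The lowest value was that of 42 °C replicate 2, where Lrsam1 had its highest heated level (5.80 CPM). Without that library the range was 37.9 to 53.5, so the wider spread rests on it in part. The ratios use the values that chose the pair and carry no test. The table has 1 count per gene, so where in Dpys the reads lie, and whether any lie between the genes, was not analysed here.

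**Figure D2:**
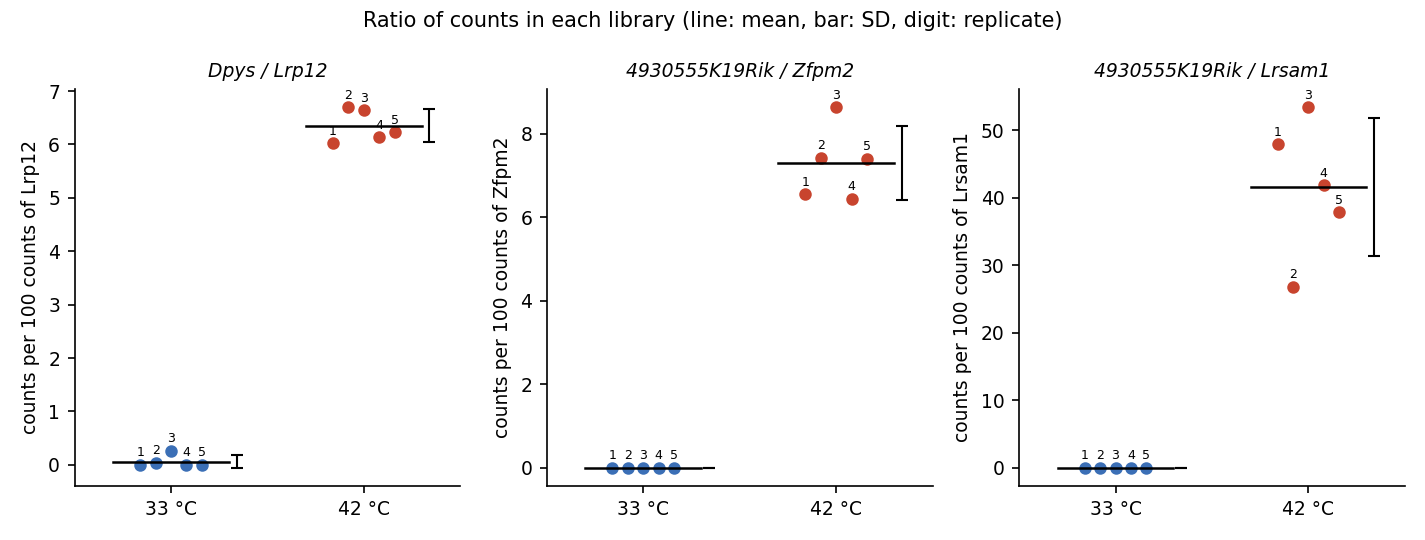
Counts of Dpys per 100 counts of Lrp12, of 4930555K19Rik per 100 of Zfpm2 and of 4930555K19Rik per 100 of Lrsam1 in each library, by group, with lines for the mean and bars for the SD. In the heated libraries the first ratio lies between 6.02 and 6.70 and the second between 6.44 and 8.64. The third runs from 26.9, in 42 °C replicate 2, to 53.5, and from 37.9 without that library.

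The rest of the stretch from 39 to 42 Mb was read in the same way. The table lists 38 genes there, of which 21 passed the filter on low counts, that is, 19 beside the pair. None of the 19 was called by edgeR, with adjusted p from 0.177 to 0.955. At an unadjusted p under 0.05 there were 5 of the 19 (9330182O14Rik, Gm41311, Gm49524, Slc25a32 and Zfpm2), where 11.5% of all features were. 7 of the 19 had positive and 12 negative log2 fold changes, with a median of -0.15, against a median of -0.01 and 48.9% positive over all features. DESeq2 called 2 of them, Gm41311 higher (0.988% of features were called higher by it) and 9330182O14Rik lower (0.119%), and limma voom called 1, 9330182O14Rik lower (0.111%). The groups did not overlap for 1 gene that was higher, Gm41311 (1.32% of features were higher without overlap), and for 2 that were lower, 9330182O14Rik and Slc25a32 (0.68% of features were lower without overlap). The 17 genes that did not pass the filter had at most 16 counts in any library, and 6 of them had none at all.

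The lincRNA gene Gm41311, between Lrp12 and Zfpm2 on the plus strand, had the highest log2 fold change of the 19. Its counts were 42, 26, 72, 22 and 72 at 33 °C and 96, 113, 92, 160 and 105 at 42 °C. The mean went from 0.495 ± 0.270 to 1.29 ± 0.414 CPM, or 1.38 on the log2 scale (SE 0.38), with an adjusted p of 0.308 in edgeR and 0.0286 in DESeq2. It was thus well detected in the controls, unlike the pair. The protein-coding gene 9330182O14Rik went from 2.75 ± 0.300 to 1.60 ± 0.277 CPM, a log2 fold change of -0.78 (SE 0.17) with adjusted p of 0.177 in edgeR, 0.00165 in DESeq2 and 0.0420 in limma voom. Slc25a32, which encodes a mitochondrial folate and FAD carrier, had 2.49 ± 0.323 and 1.79 ± 0.244 CPM (log2 fold change -0.48, edgeR adjusted p = 0.376).

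The genes next to the pair were then read one by one. Rims2, which encodes a scaffold protein of the presynaptic active zone, lies on the far side of Dpys and had 43.0 CPM in controls and 38.8 CPM after heat (log2 fold change -0.15, edgeR adjusted p = 0.607). Dcstamp, which encodes a membrane protein needed for the fusion of osteoclasts, lies 61.6 kb past the end of Rims2 on the same strand, between Rims2 and Dpys. It had 16 counts in all at 33 °C and 6 at 42 °C and did not pass the filter, so unlike Dpys it was near silent in both groups. The antisense gene Gm16291, inside Dpys, had 8 and 4 counts. Beyond Lrp12, the log2 fold change was 0.43 for AU022793, -0.17 for Gm33301 and 0.52 for the pseudogene Gm7382. Around 4930555K19Rik, Gm49529 had -0.63, and Gm26854, antisense within Oxr1, had 0.19. At the edges of the stretch, Dcaf13 had 0.04, Fzd6 -0.10, Gm26704 -0.30 and Abra -0.05.

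The 3 short gene models Gm49524, Gm49525 and Gm49526, which GENCODE classes as TEC (models still awaiting laboratory support), lie inside Zfpm2 on its strand. Their log2 fold changes were -1.10 (SE 0.35, edgeR adjusted p = 0.367), -0.57 and -0.97. Summed, they had 1.26, 0.588, 2.34, 2.01 and 0.507 CPM at 33 °C and 0.512, 1.51, 0.416, 0.605 and 0.576 CPM at 42 °C. The groups overlapped, and the heated library with the highest sum was replicate 2, the one with the highest TE share. The part of the TE share in these values was not tested.

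**Figure D3:**
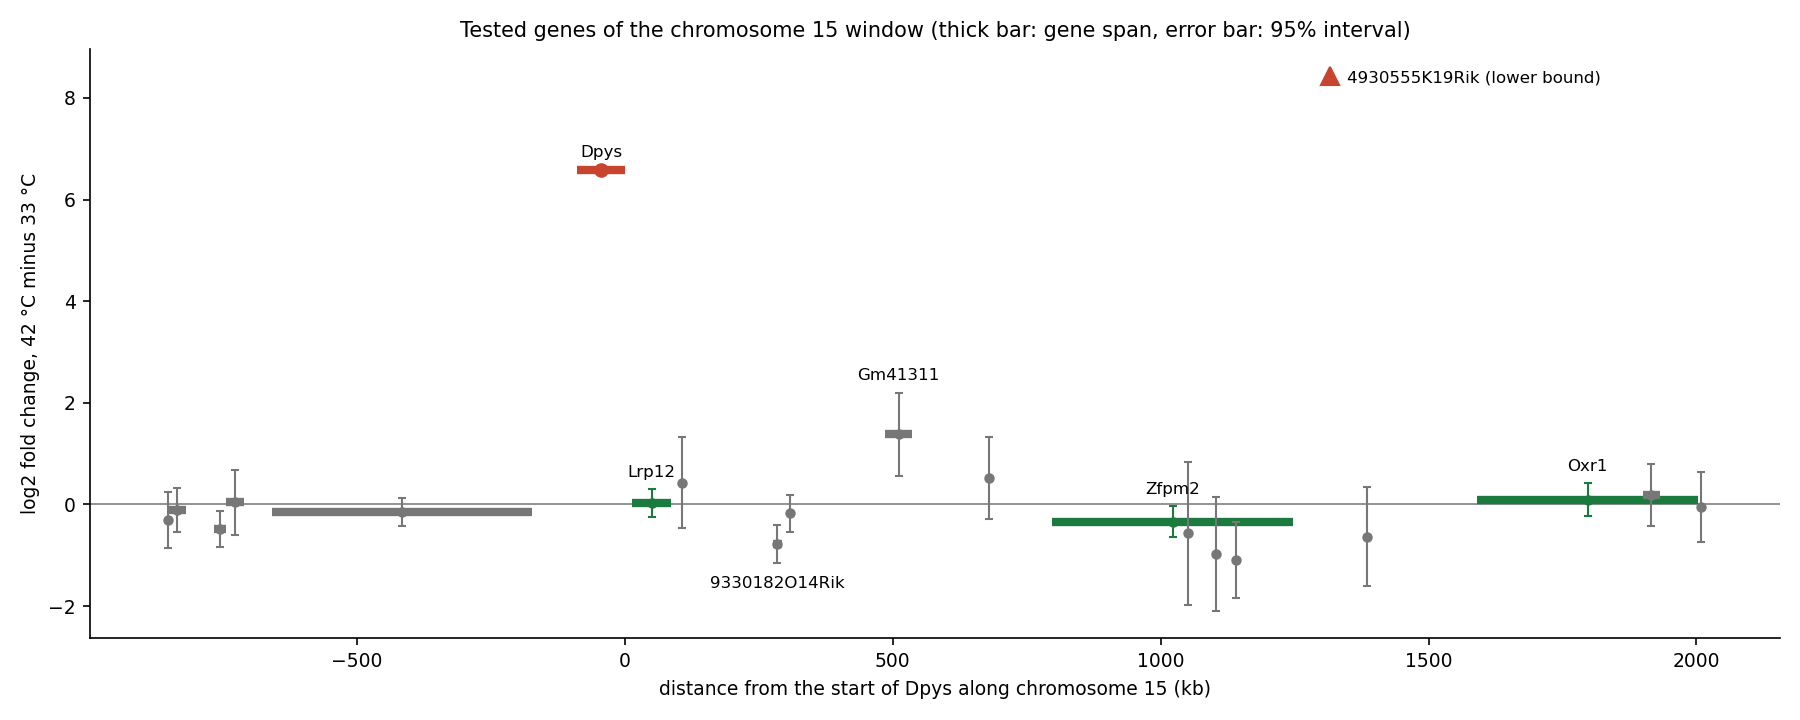
Log2 fold change (42 °C minus 33 °C) of the tested genes of the chromosome 15 window against distance from the start of Dpys in kb, with thick bars for gene spans and thin bars for 95% intervals. No interval is drawn for Dpys, and 4930555K19Rik has neither bar. Dpys at 6.58 and 4930555K19Rik, drawn as a triangle at its lower bound of 8.43, stand apart from the 19 other genes, which lie between -1.10 and 1.38.

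Genes related to the 5 by function were taken from lists. None of their tested members was called by edgeR, DESeq2 or limma voom. Over all features edgeR called 0.0922%, DESeq2 0.988% higher and 0.119% lower, and limma voom 0.476% higher and 0.111% lower. Shares this low leave few calls to be found in lists of this size. Of 11 genes of pyrimidine breakdown other than Dpys, 8 passed the filter, 5 with positive and 3 with negative log2 fold changes (median 0.11). Of the 8, 0 were at an unadjusted edgeR p under 0.05, beside 11.5% of all features. The enzymes before and after dihydropyrimidinase had the highest values, Dpyd 0.61 (SE 0.36) and Upb1 0.56 (SE 0.30). Abat, the GABA transaminase, had 0.39, and Upp2, a uridine phosphorylase, had 0.15. Upp1, Cda and Agxt2 were too low to be tested.

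The 5 dihydropyrimidinase-like genes, whose proteins resemble the enzyme and act on the cytoskeleton of growing axons, had 5 positive log2 fold changes, with a median of 0.47 beside -0.01 over all features, and 2 were under 0.05 before adjustment (11.5% of all features were). The 5 stayed positive with each of the other scalings tried. Dpysl3 had 179 ± 71.5 CPM in controls (107 to 299) and 256 ± 53.5 CPM after heat (219 to 346), so the groups overlapped. Its log2 fold change was 0.51 (SE 0.24), with an edgeR adjusted p of 0.435. Dpysl5 had 0.47 (SE 0.21, edgeR adjusted p = 0.431), Crmp1 0.59 (SE 0.29) and Dpysl2 0.46 (SE 0.24). Dpysl3 was therefore expressed far above Dpys in both groups.

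Of 15 tested genes of the LDL receptor family other than Lrp12, 6 were positive and 9 negative (median -0.07). Before adjustment 0 were under 0.05, beside 11.5% of all features. Lrp3 was at 0.82 (SE 0.42), Lrp10 at -0.56 (SE 0.39), Ldlrad3 at -0.55 (SE 0.29) and Lrp11 at -0.34 (SE 0.20). Among 7 tested FOG and GATA factors, 5 were positive (median 0.13) and 1 was under 0.05 before adjustment (11.5% of all features), Gata1 at 0.81 (SE 0.34, edgeR adjusted p = 0.417). Gata6 was at 0.25 and Gata3 at 0.24. Zfpm1, the paralog of Zfpm2, went from 42.4 to 35.6 CPM (log2 fold change -0.25, SE 0.12). Of the 3 tested TLDc genes beside Oxr1, Ncoa7 was at 0.69 (SE 0.30, edgeR adjusted p = 0.424), Meak7 at -0.24 and Tbc1d24 at -0.02, and Ncoa7 was the 1 under 0.05 before adjustment, again beside 11.5% of all features. With TMM factors from genes alone, 2 of these 3 were positive in place of 1.

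**Figure D4:**
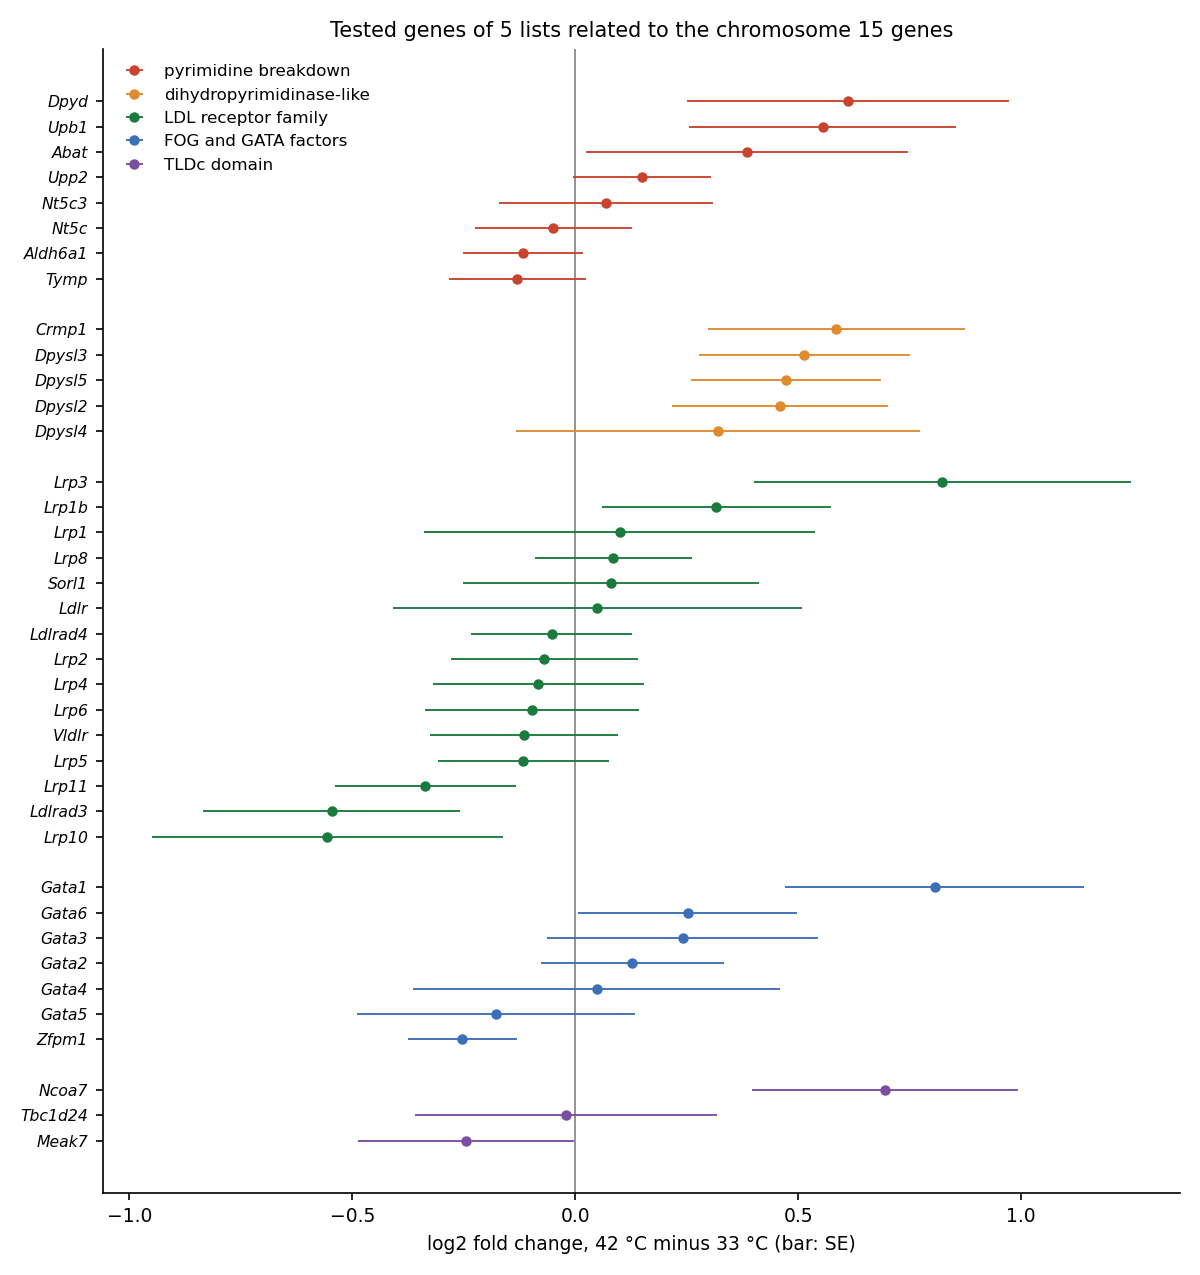
Log2 fold change (42 °C minus 33 °C) with its SE for each tested gene of the 5 function lists, coloured by list. The 5 dihydropyrimidinase-like genes are all to the right of 0, the other lists lie on both sides, and no gene passed the threshold.

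Markers of other cells were read beside the pair, and no list had a marker at 0 in all libraries. EdgeR called 0 in any list, where it called 0.0922% of all features. DESeq2 called 1, Umod of the liver and kidney list below. The part of these cells in the values of the 5 genes was not tested. Of 9 tested round spermatid markers 8 had positive log2 fold changes (median 0.26). Sertoli cell markers summed to 5.92 to 15.1 CPM at 33 °C and 8.67 to 19.1 CPM at 42 °C, with 6 of 8 positive (median 0.14). Leydig cell markers summed to 3.02 to 19.1 CPM at 33 °C and 2.76 to 7.46 CPM at 42 °C, with 6 of 6 log2 fold changes negative (median -0.81). The control spread was wide for Cyp17a1 (2.09 ± 2.38 CPM) and Insl3 (2.03 ± 2.14 CPM), less so for Star (1.48 ± 0.836 CPM). Before adjustment 0 of the 6 were under 0.05 in edgeR. Elongating spermatid markers summed to 2136 to 4794 CPM and 2643 to 6949 CPM, with 8 of 8 positive (median 0.33). Spermatocyte markers summed to 615 to 763 CPM and 483 to 701 CPM, with 6 of 8 negative. Macrophage markers summed to 7.02 to 10.7 and 6.35 to 8.96 CPM, and endothelial markers to 12.3 to 24.0 and 18.9 to 26.4 CPM. Peritubular cell markers summed to 6.27 to 14.6 and 7.94 to 10.1 CPM, and erythroid markers to 0.0534 to 0.375 and 0.110 to 0.291 CPM.

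Liver and kidney, in which Dpys is known to be active, were checked by their markers. These summed to 5.57 to 11.0 CPM at 33 °C and 7.54 to 9.56 CPM at 42 °C, and most of the sum was Lrp2 (8.10 and 7.72 CPM), the endocytic receptor megalin. Of the liver genes, Alb, which encodes albumin, was at 0.0207 CPM in controls and 0.0362 CPM after heat, and Ttr, which encodes transthyretin, at 0.00407 and 0.00209 CPM. Apoa1, which encodes the main apolipoprotein of high-density lipoprotein, was at 0.275 and 0.258 CPM. The kidney phosphate transporter gene Slc34a1 was at 0.155 and 0.168 CPM. Umod, which encodes the uromodulin of the kidney tubule, went from 0.256 ± 0.0722 to 0.571 ± 0.192 CPM (log2 fold change 1.15, SE 0.30, edgeR adjusted p = 0.280). DESeq2 called it higher, as it did 0.988% of all features.

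The genes of most similar level over the 10 libraries were found by the root mean square difference of log2(CPM + 0.1). For Dpys the nearest of all tested genes was 4930555K19Rik, with a difference of 0.503, followed by Kctd11 (0.732), Zpld2 (0.978) and Ajm1 (0.989). For 4930555K19Rik the nearest were Dpys, then Kctd11 (1.09), Naprt (1.31) and Ajm1 (1.33). Naprt also lies on chromosome 15, at 75890956 to 75894481, far from the pair, while Kctd11 is on chromosome 11, Zpld2 on chromosome 4 and Ajm1 on chromosome 2. All of these were low at 33 °C and higher at 42 °C, as the measure requires. Kctd11, which encodes an adaptor for ubiquitin ligases, had 43 counts in all at 33 °C and 498 at 42 °C, and Zpld2 had 18 and 216. Ajm1, which encodes a protein of apical junctions, had 61 and 449, and Naprt, an enzyme of NAD synthesis from nicotinic acid, had 97 and 552. Since the measure draws on the contrast that chose the pair, the likeness is given as a description.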

How the data were processed

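Raw read counts per gene and per subfamily of transposable elements (TE) were deposited by the authors as 1 table of 10 libraries, with no normalization. Per the submitters' processing notes, Trim Galore, cutadapt and DRAGEN were used with the builds GRCm38 and mm10. Which counter was used, with which strand setting and handling of reads with several places, is not given in the sources used here, so reads from a gene and its antisense partner, or from near-identical copies, may have been mixed. Gene positions in the table were those of GENCODE M21.

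Counts were analysed in R 4.3.3 with edgeR 4.0.16. Features were kept by filterByExpr (minimum count 10, minimum total 15), which left 26025 (24948 genes). TMM factors used genes and TE together, the quasi-likelihood test had the group as its term, and Benjamini-Hochberg adjustment ran over all 26025 with a threshold of 0.05. SE is the log2 fold change divided by the square root of F. Alternatives were DESeq2 1.42.0, voom of limma 3.58.1, other scalings and filters, a replicate block and leaving out each library. The scripts were tested on simulated data. Transcripts like 4930555K19Rik and like the longest Dpys transcript were sought with BLAST in GENCODE M21. RefSeq promoter sequences matched 0 of the 5 genes.

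The members, lists and rules were chosen with earlier results of these data known. Named were the 5 genes, Lrsam1, the 15 nearest tested genes, up to 4 genes of smallest p per function list and the 4 genes of most similar level. Slc25a32, Umod and other genes beyond these were chosen after their values were seen. The p-values measure the spread between the libraries, 5 per group, with N = 5 stated for each group. That each library is 1 mouse is read from that number. 42 °C replicates 1 and 3 were closer to each other (chi-square per degree of freedom of their counts 13.9) than any other pair within a group (52.6 to 290.1). They still differed by more than sampling noise and were counted as separate. This measure cannot tell whether they came from separate mice, and no fit that joins them was run. The deepest library, 117723075 counts, makes 3 counts 0.0272 CPM, and the shallowest, 60623568, makes them 0.0445 CPM. Intervals from counts cover counting error only.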

Additional observations from a re-analysis of the deposited data

Results flagged for a closer look

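Among the 50 sets of 5 libraries searched, 5 had 1 library far from the other 4 by the Dixon test at the 95% level. Chance flags about 1 in 20 sets of independent, normally distributed values. Some of the sets share counts or hold mostly 0, so the 5 flagged cannot be set against that rate. Dpys in 33 °C replicate 3 was at 0.0507 CPM, where the other control libraries had 0 to 0.00905 CPM. In the same library Dpys per 100 counts of Lrp12 was 0.262, where the others had 0 to 0.0431. Dcaf13, which encodes a ribosome biogenesis factor, was at 3.47 CPM in 42 °C replicate 2, where the other heated libraries had 1.12 to 1.77 CPM. Gm49525 was at 0.489 CPM in that library, where the others had 0.0784 to 0.147 CPM. Gm49526 was at 0.830 CPM there, where the others had 0.208 to 0.381 CPM. 42 °C replicate 2 also had the highest TE share of all libraries, 16.2%, and its part in these 3 values was not tested.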

How the results depend on the processing

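Zfpm2 kept a negative log2 fold change and Oxr1 a positive one in all 17 alternatives, -0.398 to -0.216 and 0.0129 to 0.251, and neither passed the threshold (adjusted p 0.201 to 0.799 and 0.346 to 0.981 over edgeR, DESeq2 and limma). Lrp12 ran from -0.019 to 0.148 when single libraries were left out (adjusted p over all alternatives 0.502 to 0.993), with a reversed sign of -0.019 without 33 °C replicate 1, -0.015 without 33 °C replicate 4 and -0.010 without 42 °C replicate 4, against 0.02 with all libraries. Dpys was 7.33 with limma voom and 6.30 to 8.38 when single libraries were left out, the highest without 33 °C replicate 3, and a filter at a mean of 1 CPM removed it. The lower bound for 4930555K19Rik ran from 8.10 to 8.53 when single libraries were left out. The mean of Dpys per 100 Lrp12 counts ran from 6.26 to 6.43.

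The number of genes called higher, TE left out, 23, became 73 with no filter, 2 with a mean of at least 1 CPM, 256 with DESeq2 (257 features with TE), 124 with limma voom and 10 to 21 with single libraries left out. The number called lower, 1, became 3, 0, 31, 29 and 0 to 2 in the same settings. Calls among the 19 window genes, 0, became 2 with DESeq2, 1 with limma voom and 0 when single libraries were left out.

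Same-numbered libraries did not deviate together (correlations -0.557 to -0.104, and 0 of 5 had their best match under the same number). The values thus gave no sign of a pairing by number. They cannot exclude that same-numbered samples were handled together. With a replicate block, 4 genes were called higher and 0 lower, Lrp12 was at 0.028, Zfpm2 at -0.35, Oxr1 at 0.11 and Dpys at 6.78, and 0 window genes were called.

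Depth limits the pair at 33 °C, where counts of 0 to 5 let single reads move the size of the ratio. The table gives 1 count per gene, so the place of the reads within Dpys, and reads between genes, were not analysed here.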
